A study of Mus musculus with 12 samples.

Results

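The genes described are 45 antioxidant genes that make or use glutathione, remove peroxide and superoxide, or belong to the response governed by the transcription factor NRF2. They were chosen by symbol: 34 matched the names of the glutathione transferases (Gst and Mgst), glutathione peroxidases (Gpx), peroxiredoxins (Prdx) and superoxide dismutases (Sod1 to Sod3), and 11 of 12 further genes were listed by name (Nfe2l2, Gclc, Gclm, Gss, Gsr, Hmox1, Nqo1, Srxn1, Txnrd1, Txnrd2 and Cat). Keap1, the remaining listed gene, was not analysed here. The 45 genes were set against all 17097 genes with a probe set of their own on the arrays. Expression was measured in CT26, a mouse colon carcinoma line, in 4 groups of 3 arrays each. STS+OXP cells were starved and given oxaliplatin (OXP), which forms platinum adducts on DNA. OXP cells received the drug in control medium, STS cells were starved without drug, and CTR cells had control medium alone. Short-term starvation (STS) lowered glucose to 0.5 g/L and serum to 1% for 48 hours, against 1.0 g/L and 10% in control medium, and by the labels the drug followed 24 hours after the start. The labels put OXP at 10 µM. The study's own text also gives a later start of the drug and higher concentrations, among them in the legends of figures that show array data. Dose and timing on the arrays are taken here from the labels. All groups are 1 cell line in culture, and since no source states that replicate arrays stem from different cultures, p-values measure only the spread between these arrays, which may be technical.

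Glutathione is a small thiol peptide that cells keep in reduced form to neutralise peroxides and to tag reactive compounds, platinum drugs among them, for export. It is built by glutamate-cysteine ligase (Gclc and Gclm) and glutathione synthetase (Gss), recycled by glutathione reductase (Gsr), spent by the peroxidases and attached to other molecules by the transferases. NRF2, encoded by Nfe2l2, is held in check by KEAP1 under resting conditions and, once released, switches on many of these genes through antioxidant response elements. The comparisons bear on the question the study asked of starvation and chemotherapy, that of oxidative stress in the tumour cell.

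Values are log2 intensities after RMA, on which a difference of 1 is a 2-fold change, and levels of different genes cannot be compared with each other on this scale. A gene was taken as at background in a group when its mean did not exceed the background level, the brightest of 22 nonspecific control sets on each array (3.21 to 3.72). By that measure 31 of the 45 genes were above background in all 4 groups, 5 in 1 to 3 groups and 9 in none. One OXP array, replicate 1, had a Gapdh 3′ minus 5′ difference of 3.85, against -0.117 to 0.284 on the other 11 arrays, and an actin difference of 2.33, against 0.842 to 1.33. Another, OXP replicate 2, lay nearer to the STS+OXP arrays than to its own group. Over the 45 genes its root mean square distance to the single STS+OXP arrays averaged 0.163. It was 0.486 to OXP replicate 1 and 0.430 to OXP replicate 3, where arrays within the other groups lay 0.113 to 0.222 apart. For the results described, values without 1 or both of these arrays are given where they change a call or move a called value by over 1.5 times. Changed calls in comparisons not described, such as Gstm2 in STS+OXP against CTR, are not all listed. OXP replicate 2 was singled out over these same genes, so p-values without it are no independent test. All 8 mesenchymal markers were above background. Of 9 epithelial markers 4 were (Epcam, Krt8, Krt20 and Cdx2), while Cdh1, Krt18, Krt19, Vil1 and Cldn7 were at background in every group. The mean of 7 macrophage markers was 3.64 to 4.11 on OXP arrays and 3.51 to 3.66 on CTR arrays. Of these 7, Cd14 averaged 7.75 in STS+OXP, 8.19 in OXP and 7.02 in both STS and CTR cells, and Cd68 averaged 4.41 in OXP cells and was at background in the other groups. Adgre1 (3.65 to 3.73) was just above background in every group and Csf1r in OXP and CTR cells, while Ptprc, Itgam and Lyz2 were at background in all. The part of such a signal in the results below was not tested.

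Against CTR the treated cells had higher Nfe2l2 and several higher glutathione transferases, and lower heme oxygenase, glutamate-cysteine ligase modifier subunit and thioredoxin reductase 1. In STS+OXP cells 20 were called against CTR (13 higher, 7 lower), where 30.6% of all genes were called (16.4% higher, 14.2% lower). In OXP cells 23 were called against CTR (16 higher, 7 lower), where 31.4% of all genes were called (17.5% higher, 13.9% lower). In STS cells 15 were called against CTR (7 higher, 8 lower), where 16.5% of all genes were called (9.75% higher, 6.74% lower). A call is an adjusted p under 0.05 in limma with Benjamini-Hochberg adjustment over all 17097 genes. As shares of the 45 genes the calls came to 44.4% in STS+OXP, 51.1% in OXP and 33.3% in STS. The median difference of the 45 genes was 0.05 in STS+OXP, 0.09 in OXP and -0.09 in STS, beside 0.00 over all genes in STS+OXP, -0.01 in OXP and -0.03 in STS. These medians include the 9 genes at background in all groups. Over the 36 genes above background in a group they were 0.14 in STS+OXP, 0.24 in OXP and -0.10 in STS. Calls went both ways in each comparison, with more higher than lower in the drug groups. The shares called were above those of all genes in each of the 3 comparisons, a difference that was not tested. Of the 23 calls in OXP cells, 23 were kept without OXP replicate 1, 23 without OXP replicate 2 and 21 without both, when Cat (adjusted p = 0.147) and Gstm2 (adjusted p = 0.0853) were lost. In bulk RNA, fewer cells of a type and less RNA per cell cannot be told apart.

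In all 3 comparisons with CTR, 11 genes were called. Of these 6 were higher each time (Gsta4, Gstm1, Gstm7, Gsto1, Mgst1 and Nfe2l2) and 4 lower each time (Hmox1, Gclm, Txnrd1 and Prdx3). Gss was called lower in STS cells and higher in both drug groups. The 3 comparisons share the CTR arrays.

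**Figure D1:**
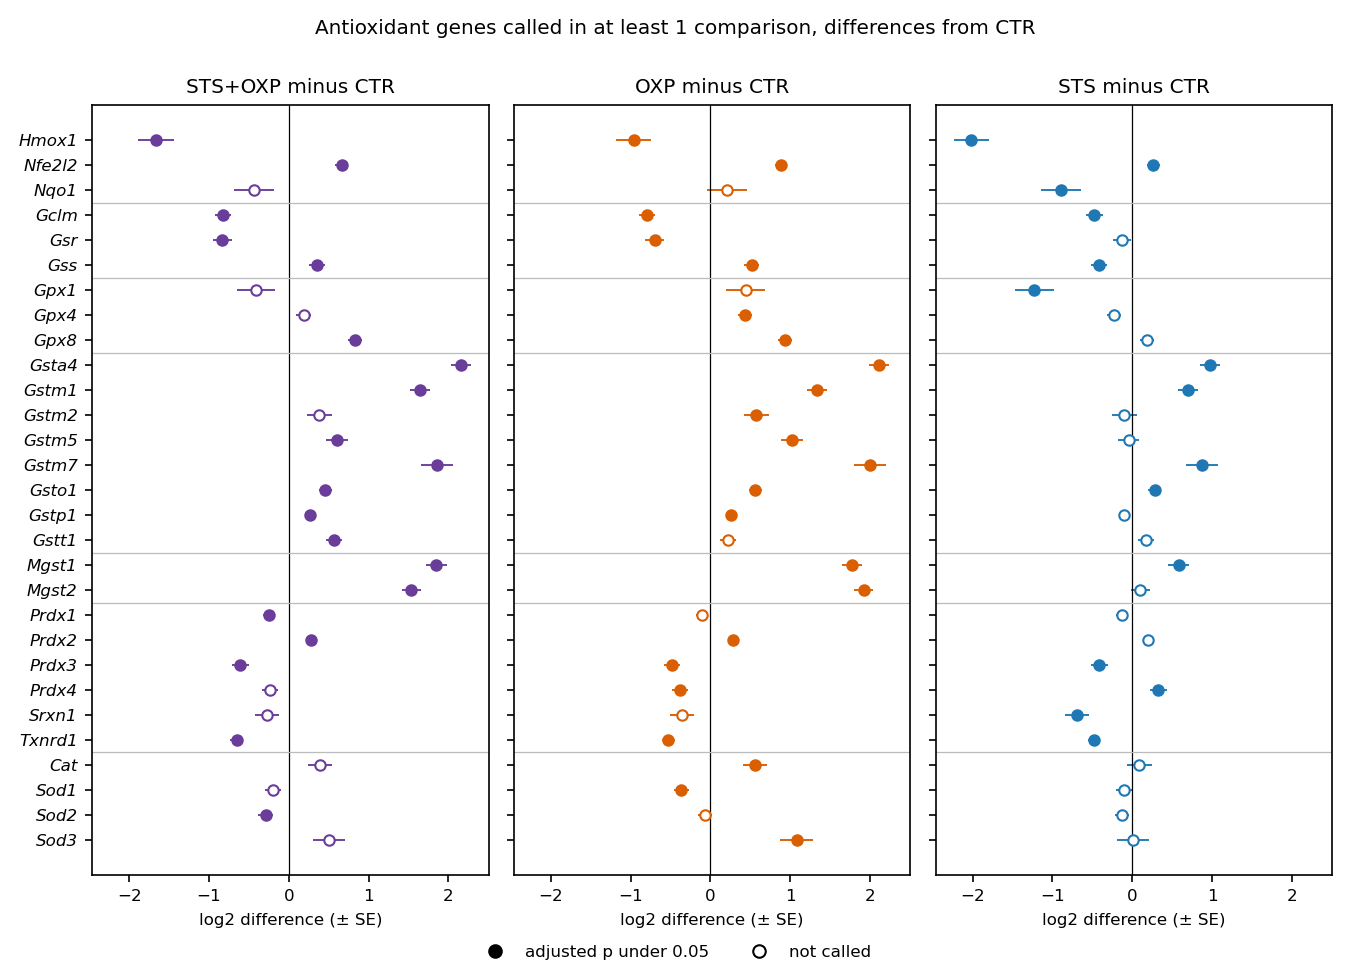
Differences from CTR on the log2 scale (x axis, point with SE of the limma fit) for the 29 genes called in at least 1 comparison, ordered by role, in STS+OXP, OXP and STS cells. Filled points were called and open points were not. Gsta4, Gstm1, Gstm7, Mgst1 and Mgst2 lie farthest to the right in both drug groups, between 1.34 and 2.16, and Hmox1 lies left of 0 in all 3.

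Promoters are shown for 4 genes that were called in all 3 comparisons with CTR, Gclm and Txnrd1 among the lower and Mgst1 and Gstm7 among the higher, since the antioxidant response element is the DNA letter pattern through which NRF2 acts. Its core was searched as TGACNNNGC on both strands, from 250 bases before to 50 bases after each annotated start. A promoter was found for 39 of the 45 genes in the RefSeq table (build GRCm38.p6), but not for Gclc, Gsr, Gsta4, Gstt2, Hmox1 and Sod3. Of the 39 genes 9 held the core (Gclm, Gstm5, Gstm7, Mgst1, Nfe2l2, Prdx1, Sod1, Srxn1 and Txnrd1). That is 23.1%, where 14.0% of the 27025 genes in the table held it. The AP-1 motif TGACTCA, found in 5.95% of genes and in 5 of the 39, can overlap the core and did so in Prdx1 only. Each sequence runs over the 250 bases before an annotated start, 5′ to 3′ on the strand of the gene, with the core in capitals. The core reads GCNNNGTCA where it lies on the other strand (Gclm, Txnrd1 and Mgst1). Gstm7, Txnrd1 and Mgst1 also have other annotated starts, whose windows held no core. A gene counted as holding the core when any of its windows did.
Gclm (chr3:122245307-122245556, + strand, core 134 bases before the start): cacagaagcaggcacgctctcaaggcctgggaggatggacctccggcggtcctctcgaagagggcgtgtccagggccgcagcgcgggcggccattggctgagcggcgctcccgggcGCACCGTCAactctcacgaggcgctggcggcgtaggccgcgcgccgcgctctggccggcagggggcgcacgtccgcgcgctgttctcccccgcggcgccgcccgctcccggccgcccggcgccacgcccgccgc
Txnrd1 (chr10:82858956-82859205, + strand, core 92 bases before the start): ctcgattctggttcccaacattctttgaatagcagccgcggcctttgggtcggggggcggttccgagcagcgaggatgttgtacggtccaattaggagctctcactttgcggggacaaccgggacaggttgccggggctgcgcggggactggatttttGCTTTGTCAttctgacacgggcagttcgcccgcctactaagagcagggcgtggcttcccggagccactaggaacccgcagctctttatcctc
Mgst1 (chr6:138140277-138140526, + strand, core 56 bases before the start): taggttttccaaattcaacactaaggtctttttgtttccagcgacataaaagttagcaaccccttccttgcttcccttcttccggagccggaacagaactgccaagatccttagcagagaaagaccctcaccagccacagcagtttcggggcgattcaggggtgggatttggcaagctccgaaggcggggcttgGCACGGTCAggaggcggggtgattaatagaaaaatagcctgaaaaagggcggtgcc
Gstm7 (chr3:107931615-107931864, - strand, core 129 bases before the start): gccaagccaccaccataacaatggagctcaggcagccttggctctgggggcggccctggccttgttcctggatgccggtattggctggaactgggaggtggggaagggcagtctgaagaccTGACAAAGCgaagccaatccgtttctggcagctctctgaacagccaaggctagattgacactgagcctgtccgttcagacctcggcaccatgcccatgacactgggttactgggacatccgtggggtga
Genes with the core were found among those that were higher and those that were lower. A match gives letters only, and no binding was measured.

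Nfe2l2 itself was higher in every treated group. Its values were 9.60, 9.50 and 9.57 on the STS+OXP arrays, 9.90, 9.61 and 9.83 on the OXP arrays and 9.19, 9.11 and 9.18 on the STS arrays, against 8.87, 8.94 and 8.87 on the CTR arrays. No treated array overlapped the CTR arrays. The differences from CTR were 0.66 ± 0.08 in STS+OXP, 0.88 ± 0.08 in OXP and 0.27 ± 0.08 in STS (± is the SE of the fit here and below), with limma adjusted p of 1.67e-05, 1.1e-06 and 0.0345. The STS call was lost when CTR replicate 1 or 3 or any STS array was left out (adjusted p up to 0.109). A second, dimmer Nfe2l2 probe set differed from CTR by 0.90, 1.15 and -0.03 in STS+OXP, OXP and STS, so the STS difference was seen on the brighter probe set alone.

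Hmox1, the heme oxygenase that is a classical NRF2 target, was lower in every treated group. It measured 5.27, 5.34 and 5.14 in STS+OXP, 6.36, 5.21 and 6.27 in OXP and 4.75, 5.03 and 4.91 in STS cells, against 6.96, 6.98 and 6.80 in CTR cells. The lowest CTR array stood above every treated array. Hmox1 was 3.16-fold lower in STS+OXP than in CTR cells (log2 difference -1.66 ± 0.22, adjusted p = 4.55e-05), 1.95-fold lower in OXP cells (-0.96 ± 0.22, adjusted p = 0.00383) and 4.04-fold lower in STS cells (-2.01 ± 0.22, adjusted p = 3.12e-05). OXP replicate 2 lay among the STS+OXP arrays. Without it the OXP difference from CTR was -0.59 (adjusted p = 0.00035), and without OXP replicate 1 it was -1.17 (adjusted p = 0.000515).

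Nqo1, the quinone reductase widely used as a readout of NRF2, fell with starvation. Its values were 4.78, 4.72 and 4.84 in STS+OXP, 5.93, 4.57 and 5.76 in OXP and 4.30, 4.31 and 4.39 in STS cells, against 5.06, 5.37 and 5.23 in CTR cells. The STS arrays were all below the CTR arrays, by 0.89 ± 0.25 (adjusted p = 0.0263), a call that was lost without any 1 of the STS or CTR arrays (adjusted p up to 0.0818). Against CTR, the STS+OXP difference of -0.44 (adjusted p = 0.232) and the OXP difference of 0.20 (adjusted p = 0.626) were not called. OXP replicates 1 and 3 lay above every CTR array and OXP replicate 2 below all of them. Without OXP replicate 2 the difference from CTR became 0.63 in OXP (adjusted p = 0.000177), -0.44 in STS+OXP (adjusted p = 0.00109) and -0.89 in STS (adjusted p = 8.05e-06). Without OXP replicate 1 the OXP difference was -0.05 (adjusted p = 0.896), of the opposite sign.

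**Figure D2:**
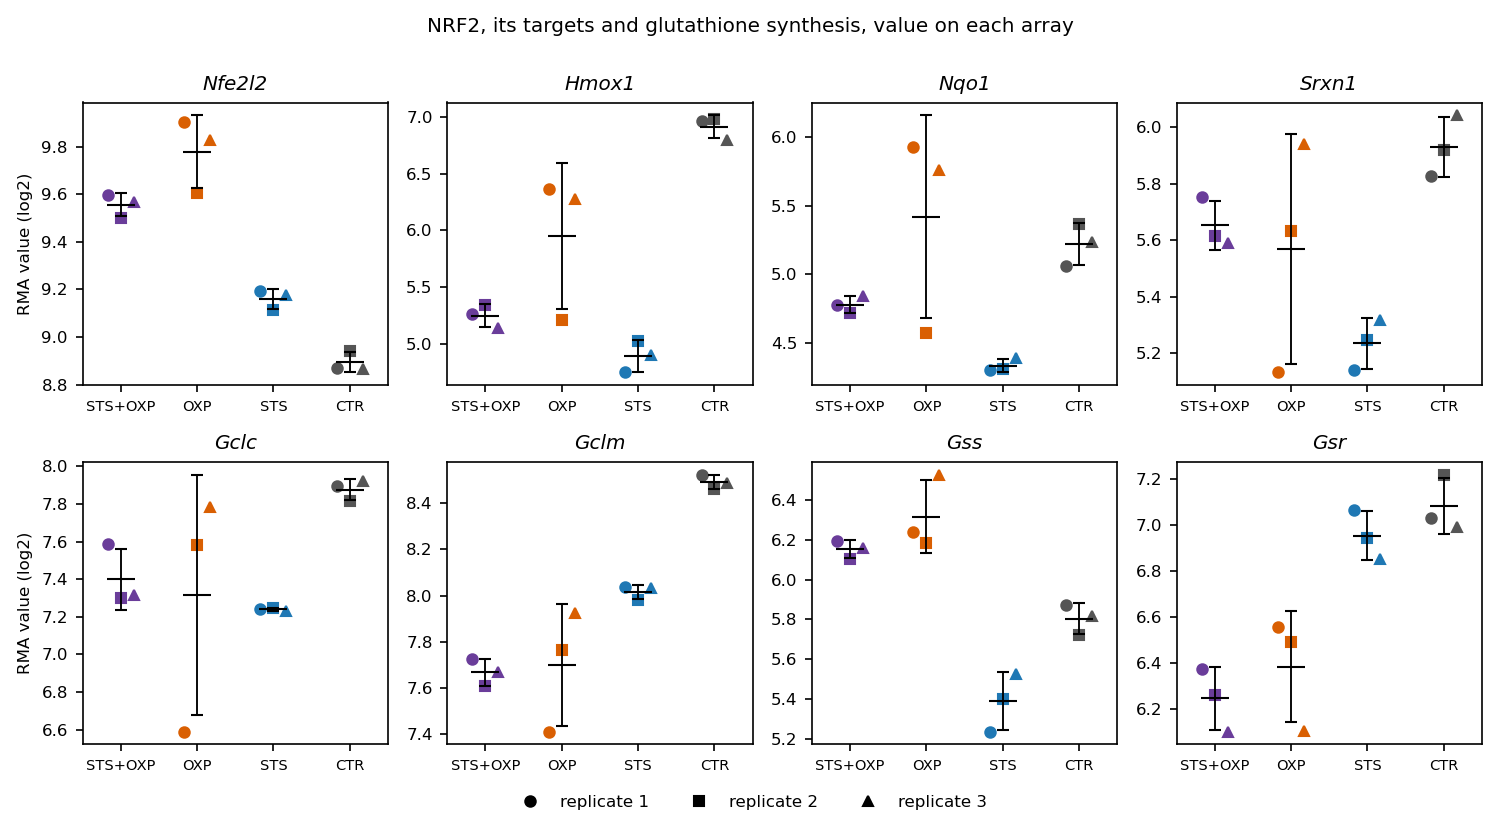
RMA values (y axis, log2) of Nfe2l2, Hmox1, Nqo1, Srxn1, Gclc, Gclm, Gss and Gsr on each array (points, 1 shape per replicate number) with the mean and SD of 3 arrays, for STS+OXP, OXP, STS and CTR cells. OXP replicate 2 (square) lies near the STS+OXP arrays for Hmox1 and Nqo1, and OXP replicate 1 (circle) lies lowest of the OXP arrays for Gclc, Gclm and Srxn1.

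Of the subunits of the enzyme for the first step of glutathione synthesis, one was called lower in all treated groups. Gclm, the modifier subunit of glutamate-cysteine ligase, measured 7.73, 7.61 and 7.67 in STS+OXP, 7.41, 7.76 and 7.93 in OXP and 8.04, 7.98 and 8.03 in STS cells, against 8.52, 8.46 and 8.49 in CTR cells. All 9 treated arrays were below the 3 CTR arrays. The differences were -0.83 ± 0.10 in STS+OXP (adjusted p = 2.82e-05), -0.79 ± 0.10 in OXP (adjusted p = 4.14e-05) and -0.48 ± 0.10 in STS (adjusted p = 0.00634). Gclm was also lower in STS+OXP than in STS cells, by 0.35 (adjusted p = 0.0272), a call lost without STS+OXP replicate 2 or 3 or any STS array (adjusted p up to 0.0946).

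Gclc, the catalytic subunit, was not called in any comparison. It measured 7.59, 7.30 and 7.31 in STS+OXP, 6.59, 7.58 and 7.78 in OXP and 7.24, 7.25 and 7.23 in STS cells, against 7.89, 7.81 and 7.92 in CTR cells. OXP replicate 1, the array with the raised 3′ minus 5′ difference, was the lowest of the 12. The differences from CTR were -0.48, -0.56 and -0.64 in STS+OXP, OXP and STS (adjusted p = 0.131, 0.0711 and 0.0661). With OXP replicate 1 left out they were -0.48 (adjusted p = 0.000462), -0.20 (adjusted p = 0.151) and -0.64 (adjusted p = 0.000109). Without OXP replicate 2 the OXP difference was -0.69 (adjusted p = 0.0396).

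Gss, which completes the tripeptide, went in opposite directions with starvation and with the drug. Its values were 6.19, 6.10 and 6.16 in STS+OXP, 6.24, 6.18 and 6.53 in OXP and 5.24, 5.40 and 5.53 in STS cells, against 5.87, 5.72 and 5.82 in CTR cells. The drug groups lay above the CTR arrays and the STS group below them without overlap. The difference from CTR was 0.35 ± 0.10 in STS+OXP (adjusted p = 0.0146), 0.51 ± 0.10 in OXP (adjusted p = 0.00101) and -0.42 ± 0.10 in STS (adjusted p = 0.0104). The first was lost without CTR replicate 2 or STS+OXP replicate 1 (adjusted p up to 0.0609), and the last without STS replicate 1 (adjusted p = 0.0568). Gss was 1.70-fold higher in STS+OXP than in STS cells (0.77 ± 0.10, adjusted p = 6.26e-05).

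Gsr, the reductase that restores glutathione from its oxidised form, was lower with the drug. It measured 6.38, 6.26 and 6.10 in STS+OXP, 6.56, 6.49 and 6.11 in OXP and 7.07, 6.94 and 6.85 in STS cells, against 7.03, 7.22 and 6.99 in CTR cells. Both drug groups lay below all STS and CTR arrays. The differences from CTR were -0.83 ± 0.12 in STS+OXP (adjusted p = 7.53e-05) and -0.70 ± 0.12 in OXP (adjusted p = 0.000351), and that in STS was -0.13 ± 0.12 (adjusted p = 0.549). Against STS, STS+OXP was lower by 0.71 (adjusted p = 0.000542).

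The glutathione transferases gave the largest increases. These enzymes couple glutathione to reactive compounds. Of the 16 cytosolic and other soluble members 7 were called higher in STS+OXP, 7 in OXP and 4 in STS against CTR, and 0 lower. Over all genes 16.4%, 17.5% and 9.75% were called higher and 14.2%, 13.9% and 6.74% lower in these comparisons. Gsta4, which handles the lipid peroxidation product 4-hydroxynonenal, measured 6.05, 6.12 and 6.19 in STS+OXP, 6.11, 6.33 and 5.77 in OXP and 4.84, 5.02 and 4.94 in STS cells, against 3.81, 4.01 and 4.06 in CTR cells. The drug groups overlapped each other, and the STS arrays lay between them and the CTR arrays. The CTR arrays were little above their own background levels (3.72, 3.60 and 3.67), so folds against CTR rest on a baseline near background. Against CTR, Gsta4 was 4.46-fold higher in STS+OXP (2.16 ± 0.12, adjusted p = 1.25e-08), 4.32-fold in OXP (2.11 ± 0.12, adjusted p = 1.58e-08) and 1.96-fold in STS cells (0.97 ± 0.12, adjusted p = 8.62e-05).

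The mu-class genes lie side by side on chromosome 3, from Gstm5 (start 107895854) to Gstm4 (end 108045179) in GRCm38.p6, and resemble each other in sequence, so that probes can be shared between them. Gstm1 measured 8.46, 8.53 and 8.36 in STS+OXP, 7.83, 8.44 and 8.16 in OXP and 7.53, 7.46 and 7.52 in STS cells, against 6.79, 6.73 and 6.91 in CTR cells. Its STS+OXP, STS and CTR arrays formed 3 separate levels, and OXP arrays reached into the STS+OXP level. The differences from CTR were 1.64 ± 0.12 in STS+OXP, 1.34 ± 0.12 in OXP and 0.70 ± 0.12 in STS (adjusted p = 1.68e-07, 1.2e-06 and 0.00123). The other 3 Gstm1 probe sets differed from CTR by 0.42 to 1.66 in STS+OXP, 0.43 to 1.28 in OXP and -0.06 to 0.76 in STS.

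Gstm7, a further mu-class enzyme, measured 5.55, 5.92 and 5.85 in STS+OXP, 6.29, 5.74 and 5.73 in OXP and 4.86, 4.71 and 4.80 in STS cells, against 3.38, 4.15 and 4.24 in CTR cells. The drug groups overlapped each other and lay above all STS arrays, which lay above all CTR arrays. Gstm7 was 3.61-fold higher in STS+OXP than in CTR cells (1.85 ± 0.20, adjusted p = 7.22e-06), 4.01-fold in OXP (2.00 ± 0.20, adjusted p = 3.46e-06) and 1.83-fold in STS cells (0.87 ± 0.20, adjusted p = 0.00907). CTR replicate 1 was the lowest of the 12 arrays and lay below its own background level (3.72), so these folds rest on a baseline near background. A second Gstm7 probe set, of lower signal, moved by 0.03, -0.03 and 0.01 in STS+OXP, OXP and STS.

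Gstm5 was higher in both drug groups. Its values were 6.60, 6.61 and 6.49 in STS+OXP, 7.31, 6.69 and 6.94 in OXP and 6.09, 5.92 and 5.73 in STS cells, against 6.06, 6.01 and 5.82 in CTR cells. STS and CTR arrays overlapped (difference -0.05, adjusted p = 0.874), whereas STS+OXP and OXP were higher than CTR by 0.60 ± 0.14 (adjusted p = 0.00333) and 1.02 ± 0.14 (adjusted p = 4.7e-05). Gstm2 measured 3.36, 3.18 and 3.23 in STS+OXP, 3.93, 3.24 and 3.17 in OXP and 2.78, 2.79 and 2.76 in STS cells, against 2.71, 3.04 and 2.87 in CTR cells. Replicate 1 was the highest of the OXP arrays and the other 2 lay at the level of the STS+OXP arrays. By group mean Gstm2 was above background in OXP cells only. There only replicate 1 exceeded the background level of its own array (3.21), while replicates 2 and 3 lay below theirs (3.34 and 3.71). Its OXP call (adjusted p = 0.012, lost without CTR replicate 1 at 0.0582) therefore carries no fold. Its OXP difference was 0.57 with all arrays and 0.33 without OXP replicate 1 (adjusted p = 0.0134). Its call in STS+OXP against STS (adjusted p = 0.0435) compares groups that were both at background, and was lost without CTR replicate 3 or any 1 of the STS or STS+OXP arrays (adjusted p up to 0.133).

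Gsto1, an omega-class enzyme that reduces rather than conjugates, measured 11.39, 11.16 and 11.36 in STS+OXP, 11.44, 11.34 and 11.44 in OXP and 11.08, 11.08 and 11.21 in STS cells, against 10.78, 10.90 and 10.85 in CTR cells. Every treated array lay above the CTR arrays. Gsto1 was higher than CTR by 0.46 in STS+OXP, 0.56 in OXP and 0.28 in STS (adjusted p = 0.000394, 6.69e-05 and 0.0247), and the STS call was lost without CTR replicate 1 or 3 or STS replicate 1 or 3 (adjusted p up to 0.116). A second Gsto1 probe set, of similar signal, differed from CTR by 0.45, 0.52 and 0.12 in STS+OXP, OXP and STS. Gstp1, the pi-class enzyme linked to resistance to platinum drugs, measured 11.53, 11.57 and 11.59 in STS+OXP, 11.48, 11.59 and 11.61 in OXP and 11.22, 11.14 and 11.22 in STS cells, against 11.34, 11.28 and 11.28 in CTR cells. The drug groups lay above the CTR arrays and the STS arrays below them. Gstp1 was higher than CTR by 0.26 in STS+OXP (adjusted p = 0.00626) and 0.26 in OXP (adjusted p = 0.00705), and its STS difference was -0.11 (adjusted p = 0.331). Gstt1, a theta-class transferase, measured 3.87, 3.87 and 3.88 in STS+OXP, 3.45, 3.72 and 3.40 in OXP and 3.66, 3.47 and 3.32 in STS cells, against 3.21, 3.38 and 3.32 in CTR cells, where it was at background. The STS+OXP arrays stood above all others, while OXP and STS arrays overlapped the CTR arrays or lay just above them. Gstt1 was at least 1.16-fold higher in STS+OXP than in CTR cells (adjusted p = 0.000501), taking the background level in place of its CTR value. Against STS its difference was 0.39 (adjusted p = 0.011), which was lost without STS replicate 3 (adjusted p = 0.0634).

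Membrane transferases detoxify lipid peroxides inside membranes. Mgst2 was higher with the drug, in both media. Its values were 8.69, 8.78 and 8.73 in STS+OXP, 9.26, 8.79 and 9.30 in OXP and 7.33, 7.36 and 7.21 in STS cells, against 7.32, 7.11 and 7.17 in CTR cells. The drug groups lay far above the STS and CTR arrays, which overlapped. Mgst2 was 2.90-fold higher in STS+OXP (1.53 ± 0.12, adjusted p = 2.21e-07) and 3.78-fold higher in OXP than in CTR cells (1.92 ± 0.12, adjusted p = 2.59e-08), and differed by 0.10 in STS cells (adjusted p = 0.642). Mgst1 measured 5.09, 5.03 and 4.99 in STS+OXP, 5.12, 4.75 and 5.00 in OXP and 3.78, 3.72 and 3.81 in STS cells, against 3.54, 2.99 and 3.03 in CTR cells, where it was at background. The drug groups overlapped each other and lay above the STS arrays. Against the background level Mgst1 was at least 2.59-fold higher in STS+OXP (adjusted p = 1.08e-07), at least 2.46-fold higher in OXP (adjusted p = 1.61e-07) and at least 1.08-fold higher in STS cells (adjusted p = 0.00677). A second Mgst1 probe set was at background in every group. Mgst3, the third membrane enzyme, measured 7.20, 7.39 and 7.15 in STS+OXP, 7.77, 7.16 and 8.07 in OXP and 7.05, 7.04 and 6.90 in STS cells, against 7.27, 7.14 and 7.22 in CTR cells. It was not called, and OXP replicate 2 was the only OXP array within the CTR range. Without that array Mgst3 was higher in OXP than in CTR by 0.71 (adjusted p = 0.000123), and without OXP replicate 1 by 0.41 (adjusted p = 0.114, not called).

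**Figure D3:**
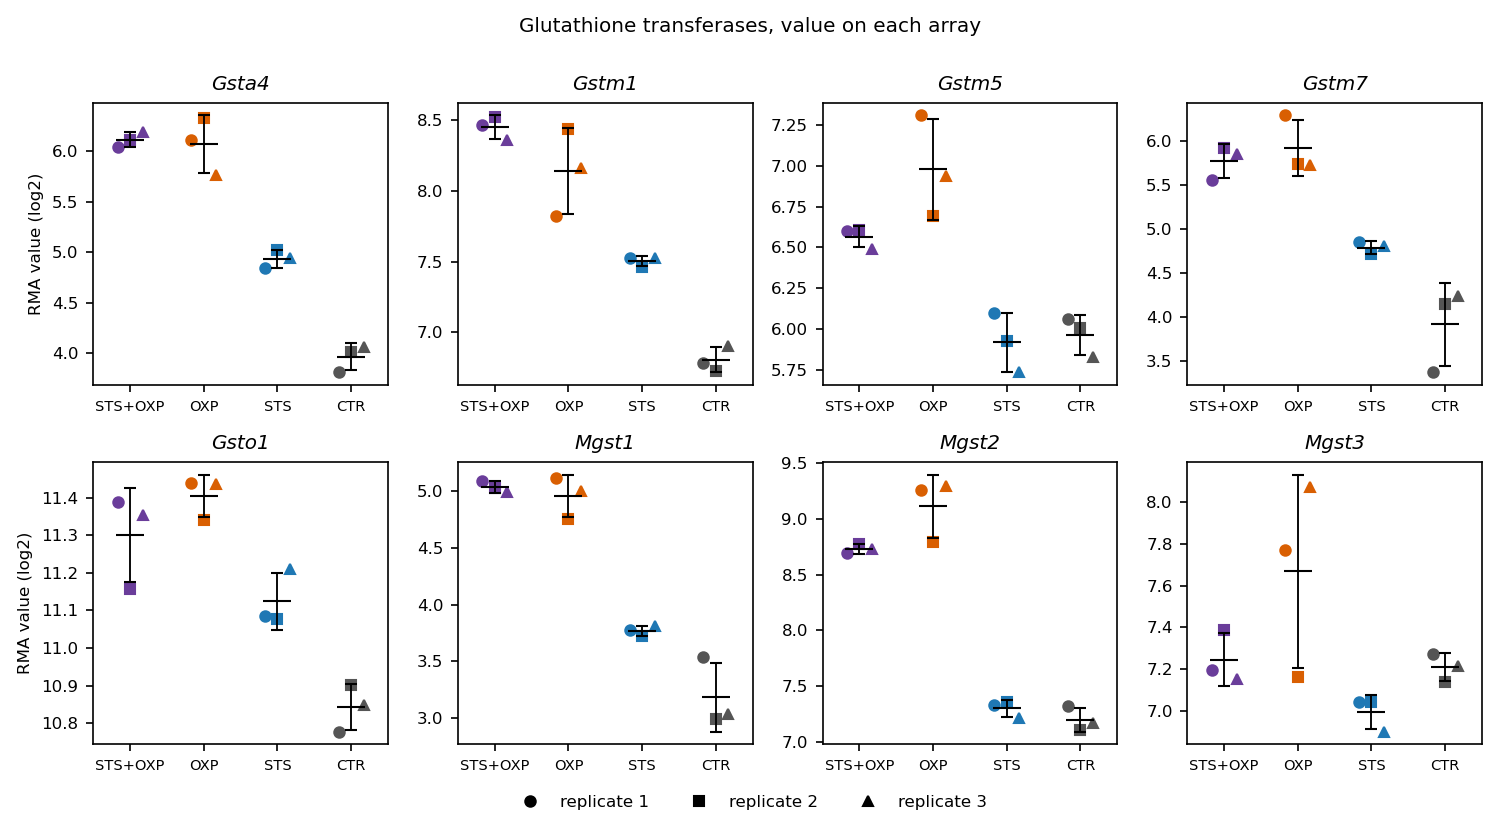
RMA values (y axis, log2) of Gsta4, Gstm1, Gstm5, Gstm7, Gsto1, Mgst1, Mgst2 and Mgst3 on each array (points, 1 shape per replicate number) with the mean and SD of 3 arrays, for STS+OXP, OXP, STS and CTR cells. The drug groups are highest for Gsta4, Gstm7, Mgst1 and Mgst2. STS arrays lie between them and CTR for Gsta4, Gstm1, Gstm7 and Mgst1 and on the CTR level for Gstm5 and Mgst2.

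Glutathione peroxidases reduce peroxides at the expense of glutathione. Gpx1, the main cytosolic form, measured 9.01, 9.20 and 9.03 in STS+OXP, 10.41, 9.10 and 10.29 in OXP and 8.26, 8.28 and 8.26 in STS cells, against 9.53, 9.48 and 9.47 in CTR cells. It was 2.34-fold lower in STS than in CTR cells (-1.22 ± 0.24, adjusted p = 0.00302). OXP replicates 1 and 3 lay above the CTR arrays and OXP replicate 2 lay below them, inside the STS+OXP range. The OXP difference from CTR was 0.44 (adjusted p = 0.208) with all arrays and 0.86 (adjusted p = 2.06e-06) without OXP replicate 2, against 0.20 (adjusted p = 0.561) without OXP replicate 1. The STS+OXP difference from CTR was -0.41, with adjusted p of 0.255 over all arrays and 0.000474 without OXP replicate 2. Gpx1 was higher in STS+OXP than in STS by 0.82 (adjusted p = 0.0256), a call lost when any 1 array of these groups was left out (adjusted p up to 0.0897).

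Gpx8, which resides in the endoplasmic reticulum, measured 8.90, 8.88 and 8.81 in STS+OXP, 9.11, 8.92 and 8.87 in OXP and 8.18, 8.20 and 8.25 in STS cells, against 8.21, 7.95 and 7.93 in CTR cells. Both drug groups lay above all STS and CTR arrays. Gpx8 was higher than CTR by 0.83 ± 0.09 in STS+OXP (adjusted p = 5.26e-06) and 0.94 ± 0.09 in OXP (adjusted p = 1.62e-06), and its STS arrays overlapped the CTR arrays. Gpx4, the enzyme that reduces lipid peroxides and guards against ferroptosis, measured 10.00, 10.11 and 9.97 in STS+OXP, 10.37, 10.10 and 10.33 in OXP and 9.61, 9.67 and 9.55 in STS cells, against 9.99, 9.78 and 9.75 in CTR cells. The OXP arrays lay above the CTR arrays, and the STS+OXP and OXP arrays overlapped. Gpx4 was called in OXP against CTR (0.43 ± 0.09, adjusted p = 0.00205) and in STS+OXP against STS (0.41 ± 0.09, adjusted p = 0.00434), and not in STS+OXP or STS against CTR (0.18 and -0.23, adjusted p = 0.159 and 0.117). Of the other 5 peroxidases, Gpx3, Gpx6 and Gpx7 were at background in all groups, and Gpx2 and Gpx5 lay between 3.27 and 3.72 on every array.

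Peroxiredoxins clear hydrogen peroxide with electrons from thioredoxin. The mitochondrial Prdx3 measured 7.70, 7.75 and 7.68 in STS+OXP, 8.13, 7.64 and 7.75 in OXP and 7.91, 7.95 and 7.87 in STS cells, against 8.35, 8.38 and 8.23 in CTR cells. Every treated array lay below the CTR arrays. Prdx3 was lower than CTR by 0.61 ± 0.11 in STS+OXP (adjusted p = 0.000425), 0.48 ± 0.11 in OXP (adjusted p = 0.00262) and 0.41 ± 0.11 in STS (adjusted p = 0.0156, lost without CTR replicate 1 or 2 or STS replicate 3, up to 0.0636). Prdx4, the peroxiredoxin of the secretory pathway, measured 9.14, 9.18 and 9.05 in STS+OXP, 9.06, 9.17 and 8.71 in OXP and 9.72, 9.75 and 9.61 in STS cells, against 9.42, 9.34 and 9.32 in CTR cells. The STS arrays were the highest, followed by the CTR arrays. Prdx4 was higher in STS (0.33, adjusted p = 0.0447) and lower in OXP (-0.38, adjusted p = 0.0106) than in CTR cells, and lower in STS+OXP than in STS (-0.57, adjusted p = 0.00109). The first of these calls was kept only while all STS+OXP, STS and CTR arrays were in the fit (adjusted p up to 0.14 otherwise). The OXP difference was -0.66 (adjusted p = 0.000146) without OXP replicates 1 and 2.

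Prdx2, a cytosolic peroxiredoxin, measured 10.31, 10.42 and 10.31 in STS+OXP, 10.40, 10.28 and 10.38 in OXP and 10.24, 10.28 and 10.28 in STS cells, against 10.06, 10.05 and 10.11 in CTR cells, all treated arrays lying above the CTR arrays. Its differences from CTR were 0.28 in STS+OXP, 0.28 in OXP and 0.19 in STS (adjusted p = 0.00464, 0.0039 and 0.0597), and the last was 0.0493 without OXP replicate 2. Prdx1, its close relative, measured 10.93, 11.03 and 10.93 in STS+OXP, 11.19, 10.997 and 11.11 in OXP and 11.10, 11.08 and 11.07 in STS cells, against 11.32, 11.15 and 11.15 in CTR cells. The STS+OXP arrays lay below the CTR arrays, and OXP arrays overlapped both. Prdx1 was called in STS+OXP against CTR (-0.24, adjusted p = 0.0225), and the call was lost without CTR replicate 1 or STS+OXP replicate 1 or 3 (adjusted p up to 0.103). A second, dimmer Prdx1 probe set differed from CTR by -0.09, 0.06 and 0.02 in STS+OXP, OXP and STS.

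Txnrd1, the cytosolic thioredoxin reductase, measured 7.82, 7.76 and 7.87 in STS+OXP, 7.84, 7.97 and 8.02 in OXP and 8.01, 7.94 and 8.03 in STS cells, against 8.60, 8.46 and 8.36 in CTR cells. All 9 treated arrays lay below the CTR arrays, by 0.65 ± 0.08 in STS+OXP (adjusted p = 1.62e-05), 0.53 ± 0.08 in OXP (adjusted p = 0.000109) and 0.48 ± 0.08 in STS (adjusted p = 0.000764). Txnrd2, its mitochondrial counterpart, was between 4.22 and 4.63 on the 12 arrays and was not called. Srxn1, sulfiredoxin, which repairs overoxidised peroxiredoxins, measured 5.75, 5.62 and 5.59 in STS+OXP, 5.13, 5.63 and 5.94 in OXP and 5.14, 5.25 and 5.32 in STS cells, against 5.83, 5.92 and 6.04 in CTR cells. It was lower in STS than in CTR by 0.69 ± 0.15 (adjusted p = 0.00613). The differences in STS+OXP (-0.28, adjusted p = 0.215) and OXP (-0.36, adjusted p = 0.0928) were not called. The OXP arrays had the widest range, with OXP replicate 1 lowest. Without that array Srxn1 was called in STS+OXP against CTR (-0.28, adjusted p = 0.0317) and against STS (0.42, adjusted p = 0.0035). Another Srxn1 probe set, of similar signal, differed from CTR by -0.51, -0.40 and -0.62 in STS+OXP, OXP and STS. Dimmer Srxn1 probe sets differed from CTR by -0.26 to 0.11 in these comparisons.

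**Figure D4:**
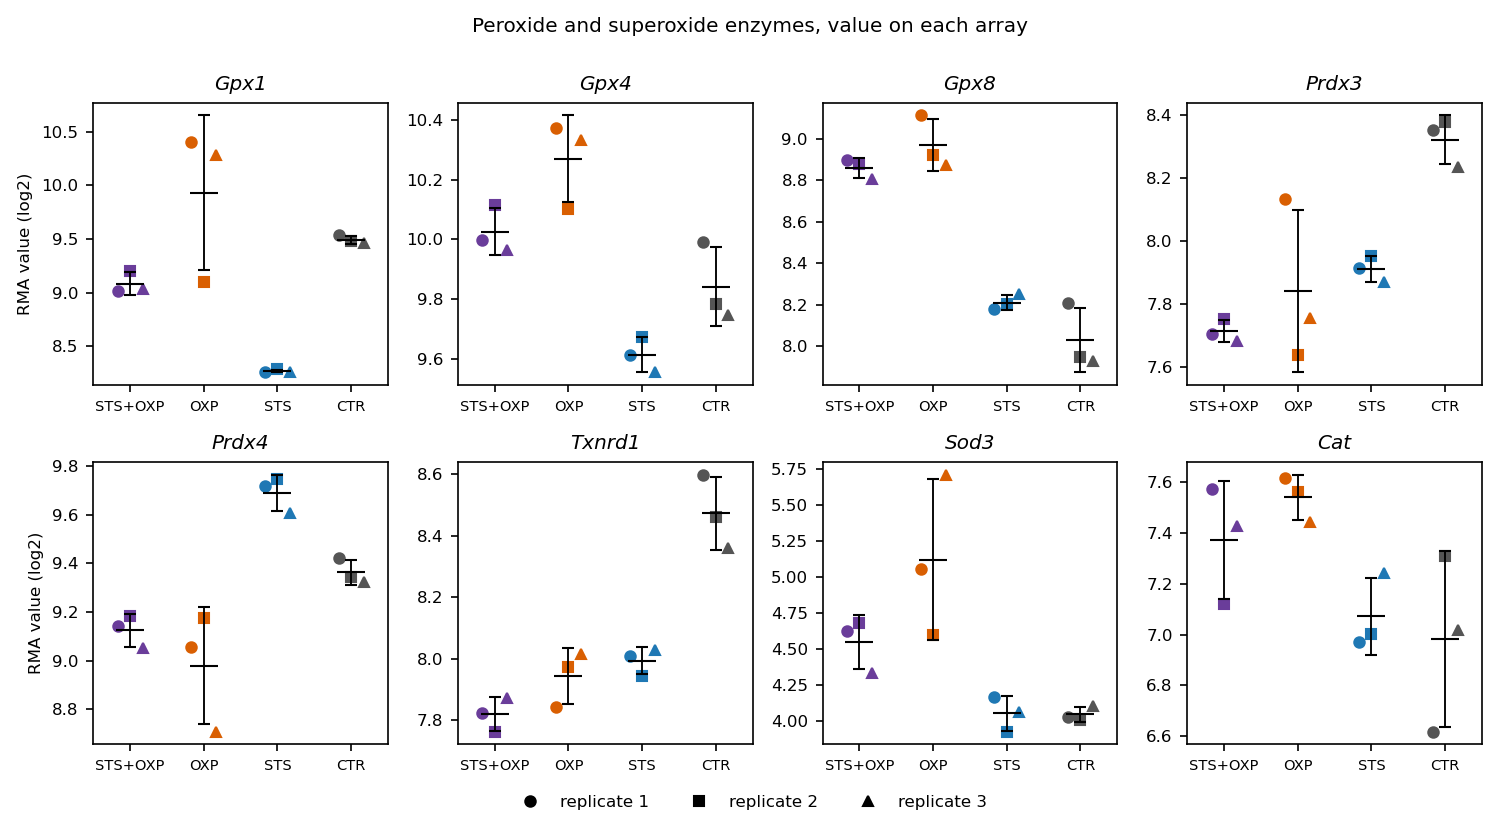
RMA values (y axis, log2) of Gpx1, Gpx4, Gpx8, Prdx3, Prdx4, Txnrd1, Sod3 and Cat on each array (points, 1 shape per replicate number) with the mean and SD of 3 arrays, for STS+OXP, OXP, STS and CTR cells. Gpx1 is lowest in STS cells, Prdx3 and Txnrd1 are highest in CTR cells, and OXP replicate 2 (square) stands below the other OXP arrays for Gpx1 and Sod3.

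Superoxide dismutases turn superoxide into hydrogen peroxide, which catalase removes. Sod3, the extracellular form, measured 4.63, 4.68 and 4.33 in STS+OXP, 5.06, 4.60 and 5.71 in OXP and 4.17, 3.92 and 4.06 in STS cells, against 4.03, 4.001 and 4.10 in CTR cells. OXP replicate 2 lay among the STS+OXP arrays, and STS and CTR arrays overlapped. Sod3 was 2.11-fold higher in OXP than in CTR cells (1.08 ± 0.20, adjusted p = 0.000839), and the log2 difference was 1.67 (adjusted p = 4.04e-07) without OXP replicates 1 and 2. The STS+OXP difference from CTR was 0.50 (adjusted p = 0.0829), and 0.50 with an adjusted p of 0.015 when OXP replicate 2 was left out of the shared estimate of spread. Sod1, the cytosolic enzyme, measured 10.37, 10.41 and 10.33 in STS+OXP, 9.93, 10.37 and 10.31 in OXP and 10.48, 10.48 and 10.43 in STS cells, against 10.63, 10.51 and 10.57 in CTR cells. Every treated array lay below the CTR arrays, OXP replicate 1 lowest. Sod1 was called lower in OXP (-0.36 ± 0.10, adjusted p = 0.0103), and the difference without that array was -0.23 (adjusted p = 0.0241).

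Sod2, the mitochondrial form, measured 7.89, 7.64 and 7.84 in STS+OXP, 8.18, 7.83 and 8.04 in OXP and 7.97, 7.95 and 7.94 in STS cells, against 8.06, 8.07 and 8.12 in CTR cells. The STS+OXP arrays lay below the CTR arrays, and OXP arrays spread over both. Sod2 was lower in STS+OXP (-0.29, adjusted p = 0.025), a call lost without CTR replicate 2 or 3 or STS+OXP replicate 2 (adjusted p up to 0.119). The other 3 Sod2 probe sets differed between STS+OXP and CTR by -0.11 to 0.15. In STS they differed from CTR by -0.15, -0.02 and 0.75, where the set used differed by -0.13. Cat, catalase, measured 7.57, 7.12 and 7.43 in STS+OXP, 7.62, 7.56 and 7.44 in OXP and 6.97, 7.001 and 7.24 in STS cells, against 6.62, 7.31 and 7.02 in CTR cells. The OXP arrays lay above the CTR arrays and overlapped the STS+OXP arrays. Cat was higher in OXP (0.56 ± 0.16, adjusted p = 0.0132), which was lost without CTR replicate 1, the lowest array (adjusted p = 0.0649), and without OXP replicates 1 and 2 (0.46, adjusted p = 0.147).

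Adding OXP to starved cells was compared in STS+OXP against STS. Of the 45 genes 17 were called (14 higher, 3 lower), where 22.0% of all genes were called (10.8% higher, 11.2% lower). The median difference was 0.17 over the 45 genes and 0.04 over all genes. The higher ones were led by Mgst2 (1.43 ± 0.12, adjusted p = 7.88e-07), Mgst1 (1.27 ± 0.13, adjusted p = 7.37e-06), Gsta4 (1.18 ± 0.12, adjusted p = 7.6e-06), Gstm7 (0.98 ± 0.20, adjusted p = 0.00272) and Gstm1 (0.95 ± 0.12, adjusted p = 5.55e-05). Gsr, Prdx4 and Gclm were the lower ones. Without OXP replicate 2, which enters this comparison through the shared estimate of spread alone, Hmox1 (0.35, adjusted p = 0.00947), Nqo1 (0.45, adjusted p = 0.00157) and Sod3 (0.49, adjusted p = 0.0217) were also called. With all arrays their adjusted p was 0.322, 0.256 and 0.107. Leaving out OXP replicate 2 narrows the spread of genes for which it stood apart from its group, so these added calls are no independent test.

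Adding starvation to OXP was compared in STS+OXP against OXP, and here the outcome turned on OXP replicate 2. With all arrays none of the 45 genes was called by limma, and 0.0117% of all genes were (0.00585% higher, 0.00585% lower). At an unadjusted p under 0.05 the count was 13 of 45 (3 higher, 10 lower). The t-test of the methods, run on the same values, called 0 before and after adjustment. Without OXP replicate 2, 12 of the 45 were called (2 higher, 10 lower), where 6.82% of all genes were called (2.38% higher, 4.44% lower). With OXP replicates 1 and 2 both left out, and the remaining OXP array assumed to vary like the other groups, 8 were called, where 4.02% of all genes were called (1.96% higher, 2.06% lower). OXP replicate 2 was singled out by its nearness to STS+OXP over these same genes, so leaving it out widens this difference by construction. The counts and p-values without it describe the remaining arrays and are no independent test.

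The 12 included Hmox1 and Nqo1. With OXP replicate 2 left out, STS+OXP was lower than OXP by 1.26 ± 0.08 for Gpx1 (adjusted p = 1.93e-06), by 1.07 ± 0.10 for Hmox1 (adjusted p = 3.8e-05) and by 1.07 ± 0.10 for Nqo1 (adjusted p = 3.05e-05). With all arrays these differences were -0.85, -0.70 and -0.64 (adjusted p = 0.257, 0.257 and 0.321), and the groups overlapped through OXP replicate 2. Sod3, Mgst3, Gstm5, Mgst2, Gpx4, Sod2 and Nfe2l2 were lower by 0.31 to 0.84, while Gstm1 (0.46) and Gstt1 (0.45) were higher. In OXP against CTR, leaving out the same array gave 27 calls of 45, where 30.9% of all genes were called.

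**Figure D5:**
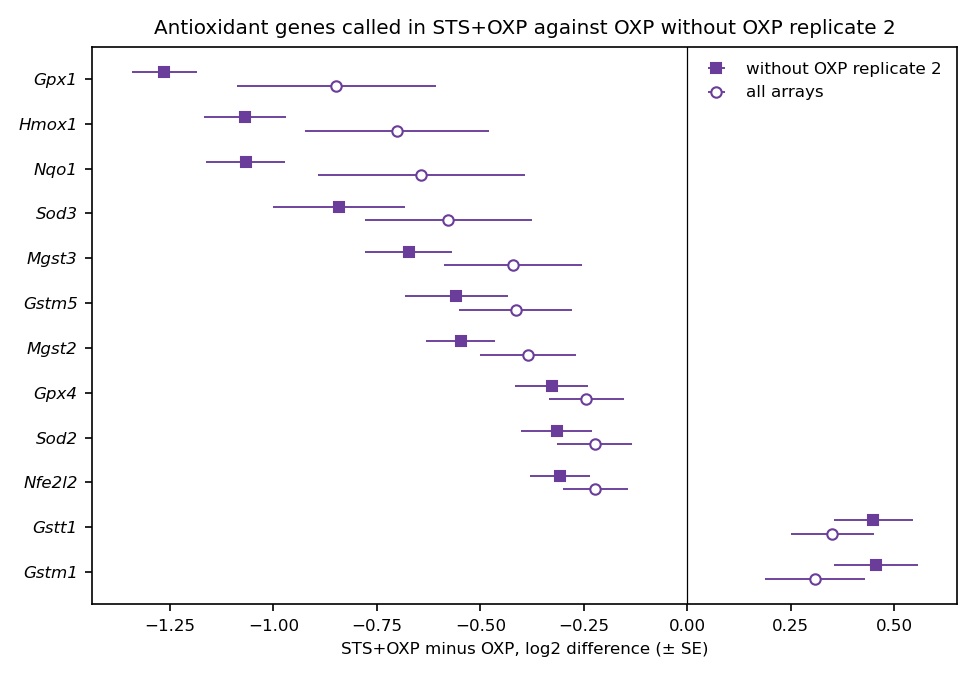
STS+OXP minus OXP on the log2 scale (x axis, with SE of the limma fit) for the 12 genes called when OXP replicate 2 was left out (squares), with the same differences over all arrays (circles). Gpx1 lies at -0.85 with all arrays and at -1.26 without that array. As the genes were chosen by the fit without it, their shift away from 0 follows from the choice.

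Whether starvation had the same effect with and without the drug was tested as the interaction, the difference STS+OXP minus OXP less the difference STS minus CTR. Of the 45 genes 6 were called (2 positive, 4 negative), where 8.29% of all genes were called (2.53% positive, 5.76% negative), and the median was -0.0028 beside 0.03 over all genes. The split was 1 positive to 4 negative with arrays centred on their medians and 3 to 3 after cyclic loess. Hmox1 had the largest positive value: STS+OXP differed from OXP by -0.70, against -2.01 for STS against CTR, an interaction of 1.31 ± 0.31 (adjusted p = 0.0196) and of 0.95 (adjusted p = 0.000455) without OXP replicate 2. The call was lost without CTR replicate 1, STS replicate 1 or STS+OXP replicate 2 (adjusted p up to 0.0575).

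Negative interactions were found for Gsta4 (-0.93 ± 0.17, adjusted p = 0.0041), Gstm7 (-1.02 ± 0.29, adjusted p = 0.0447), Nfe2l2 (-0.49 ± 0.11, adjusted p = 0.0159) and Gsto1 (-0.39 ± 0.11, adjusted p = 0.0486). For these genes STS was higher than CTR, while STS+OXP differed from OXP by 0.04, -0.15, -0.22 and -0.10. On second probe sets of Gstm7, Nfe2l2 and Gsto1, STS differed from CTR by 0.01, -0.03 and 0.12. On the same sets STS+OXP differed from OXP by 0.06, -0.26 and -0.07, and their interaction was not tested. Gsta4 and Nfe2l2 kept the call with any 1 array left out. Gstm7 lost it without CTR replicate 1, OXP replicate 1 or any STS or STS+OXP array (adjusted p up to 0.103), and Gsto1 in every such fit except those without OXP replicate 2 or STS+OXP replicate 1 (up to 0.132). Srxn1, the other positive one (0.78 ± 0.21, adjusted p = 0.0409), lost it without any 1 CTR, STS or STS+OXP array (up to 0.102). Without OXP replicate 2, 9 of the 45 were called, where 10.3% of all genes were called, with Mgst1 (-0.61), Mgst2 (-0.65) and Sod3 (-0.85) added.

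Partners of the same pathways were counted from a list of 68 genes for cysteine supply, thioredoxin, glutaredoxin, NADPH and NRF2 control, of which 65 were measured. In STS+OXP 34 were called against CTR (16 higher, 18 lower), in OXP 38 (21 higher, 17 lower) and in STS 22 (9 higher, 13 lower). These are 52.3%, 58.5% and 33.8% of the partners, beside 30.6%, 31.4% and 16.5% of all genes, and the median differences were -0.05, -0.11 and -0.07. The list was chosen with earlier results of these data known, and the difference in shares was not tested. Txnip, which binds and inhibits thioredoxin, measured 8.43, 8.44 and 8.41 in STS+OXP, 8.97, 8.32 and 8.87 in OXP and 6.33, 6.36 and 6.47 in STS cells, against 3.96, 4.74 and 4.58 in CTR cells. The drug groups lay above the STS arrays, and these above the CTR arrays. The differences from CTR were 4.001 ± 0.18, 4.29 ± 0.18 and 1.96 ± 0.18 in STS+OXP, OXP and STS (adjusted p = 1.9e-09, 1.09e-09 and 6.76e-06). Ephx1, an epoxide hydrolase of drug metabolism, measured 10.94 on all 3 STS+OXP arrays, 10.89, 10.97 and 10.89 in OXP and 7.85, 7.93 and 7.81 in STS cells, against 7.91, 8.07 and 7.80 in CTR cells. Both drug groups thus lay far above the STS and CTR arrays, which overlapped. Aldh3a1, an aldehyde dehydrogenase, was higher than CTR by 2.34 in STS+OXP, 2.89 in OXP and 0.68 in STS (adjusted p = 4.44e-08, 5.95e-09 and 0.0063).

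Cth, which makes cysteine for glutathione, was at background in all treated groups and at 5.44, 4.86 and 5.18 on the CTR arrays. It was at least 2.98-fold lower in STS+OXP (adjusted p = 2.2e-08), at least 3.35-fold in OXP (adjusted p = 2.51e-08) and at least 3.24-fold in STS cells (adjusted p = 7.56e-07) than in CTR cells. Chac1, an enzyme that degrades glutathione, differed from CTR by -1.65, -2.15 and -1.48 in STS+OXP, OXP and STS (adjusted p = 9.33e-06, 7.89e-07 and 8.98e-05). Sesn3, a sestrin, was higher by 1.68, 1.65 and 1.60 (adjusted p = 4.93e-07, 5.71e-07 and 3.35e-06), and Idh1, a source of NADPH, by 1.54, 1.06 and 1.28 (adjusted p = 1.17e-06, 3.79e-05 and 2.73e-05).

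The genes not called in any comparison numbered 16. Of these 9 were at background in all 4 groups (Gpx3, Gpx6, Gpx7, Gsta2, Gstk1, Gstm4, Gstm6, Gstt2 and Gstt3), with 2.38 to 3.50 on every array, and no change could be read for them. The other 7 were Gclc, Gpx2, Gpx5, Gstm3, Gstp3, Mgst3 and Txnrd2. Gstm3 lay between 3.81 and 4.36 and Gstp3 between 3.38 and 3.88 on the 12 arrays, and their groups lay close together.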

How the data were processed

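Total RNA of CT26 cells was labelled with the 3′ IVT Express Kit and hybridized to Affymetrix mouse arrays. The values deposited by the authors are log2 intensities from RMA, run in R 3.02 according to the submitters' processing notes. RMA subtracts background, equalizes the distributions of arrays and summarises probes, so a shift common to all genes is removed. Of 45141 probe sets, 28898 had 1 gene symbol in the platform annotation, 551 several, 15588 none and 104 were controls. One single-symbol probe set per gene, that of the highest mean over the 12 arrays, gave 17097 genes, and 73 probe sets belonged to the genes described. Group means of the 12 arrays were fitted with limma 3.58.1 in R 4.3.3 (lmFit and eBayes, two-sided, Benjamini-Hochberg, 8 residual degrees of freedom) after a run on simulated data. The number of arrays limits precision.

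Genes given on every array were those listed by name, Sod1 to Sod3, and called genes without overlap of arrays, up to 8 in each direction per comparison. Partners were named by size of change, 5 per comparison with CTR. Members and lists were chosen with earlier results of these data known. "At least" folds replace the mean of a group at background by the background level. The control set with GC 25 (4.72 to 5.88) was left out of that level. Marker means were also taken for lymphocytes (3 of 5 markers above background), endothelium (1 of 5), red blood cells (1 of 2) and liver (1 of 4).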

Additional observations from a re-analysis of the deposited data

Results flagged for a closer look

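The effect of STS differed with the drug present or absent for 6 of the 45 genes, by limma's test of the interaction. The values on the log2 scale were 1.31 for Hmox1, 0.78 for Srxn1, -0.39 for Gsto1, -0.49 for Nfe2l2, -0.93 for Gsta4 and -1.02 for Gstm7. Hmox1 was lower in STS than in CTR cells and also lower in OXP than in CTR cells. Gsta4, Gstm7, Nfe2l2 and Gsto1 were higher in STS than in CTR cells and higher still in OXP cells, and STS+OXP stood within 0.22 of OXP. OXP replicates 1 and 2, which stand apart from their group, enter each of these values. With both left out the interaction was called for Hmox1 (0.99, adjusted p = 0.000766), Gsta4 (-0.63, adjusted p = 0.0133) and Nfe2l2 (-0.54, adjusted p = 0.00758), and was -0.83 for Gstm7 (adjusted p = 0.12), -0.42 for Gsto1 (adjusted p = 0.0762) and 0.41 for Srxn1 (adjusted p = 0.0893).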

How the results depend on the processing

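Of 81 calls of these genes 53 were kept under every alternative limma fit that held the gene and 28 were lost under at least 1. The fold requirement and the methods' t-test were not part of that tally. Requiring a fold of at least 2 left 6 genes in STS+OXP against CTR, 7 in OXP against CTR, 2 in STS against CTR, 3 in STS+OXP against STS and 2 in the interaction. The methods' t-test after Benjamini-Hochberg called 4 in OXP against CTR and 7 in STS against CTR, and was not run for the interaction, nor was a fit of the compared arrays alone. The interaction gave 3 with all probe sets of a gene averaged and 2 to 9 with 1 array left out. STS+OXP against OXP gave 0 to 12 with 1 array left out and 8 without OXP replicates 1 and 2 together. With probe sets specific to a gene, Mgst1 differed from CTR by -0.0087 in STS+OXP, -0.0768 in OXP and -0.0365 in STS, on a probe set at background.

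Arrays of the same replicate number did not deviate together more than others. Deviations from group means correlated at -0.199 to 0.102 in 18 pairs of the same number and -0.192 to 0.254 in 36 others. Whether the numbers pair cultures is not stated, and these correlations cannot decide it. With the replicate number as a block 20 genes were called in STS+OXP, 23 in OXP and 15 in STS against CTR, 16 in STS+OXP against STS, 0 against OXP and 4 in the interaction. Signal near background limits the 9 genes at that level.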
